A study of Mus musculus with 27 samples.

Results

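The genes described here are the Zfp genes of the mouse, named for their zinc fingers, in bone marrow-derived macrophages (BMDMs) before and after lipopolysaccharide (LPS) and interleukin-4 (IL-4). They were the protein-coding genes whose symbol is Zfp followed by a number and whose mean over all samples was at least 20 normalised read counts. The RNA-binding Zfp36 family, which degrades mRNA and is no transcription factor family, was left out. The rule kept 205 of 392 protein-coding Zfp genes, in a table of 45070 genes. Of the 187 left out for their level, 28 were at 0 in every sample. Just inside the limit were Zfp963 with a mean of 20.11 and Zfp972 with 20.15, and just outside were Zfp27 with 19.78 and Zfp939 with 19.48. The genes were thus chosen by their measured mean over all 27 samples, so the level is given below as a description only.

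Chromatin-associated RNA, the fraction rich in transcripts still being made, was measured in wild-type BMDMs, macrophages grown in culture from bone marrow cells. All 27 samples had first been kept for 1 h with DMSO, the vehicle. Untreated samples received no stimulus, and the others 10 ng/ml of LPS or of IL-4, harvested 0.5, 1, 2 or 4 h later, with 3 replicates in each of the 9 groups. LPS is the bacterial agonist of TLR4 and drives inflammatory gene induction, and IL-4 acts through STAT6 and drives alternative activation. The labels do not say whether replicates came from separate animals or cultures, so p-values measure the spread between these samples. The limma test was run on the 13901 genes that reached 10 normalised read counts in 3 or more samples, and every one of the 205 Zfp genes was among them. A gene is called changed where its Benjamini-Hochberg adjusted p over all tested genes was under 0.05. Fold changes are on the log2(value + 1) scale, which understates the change of low genes.

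Most Zfp proteins carry arrays of C2H2 zinc fingers, each of which holds a zinc ion and reads a few bases of DNA. Many also carry a KRAB domain, which recruits the corepressor Trim28 and through it the H3K9 methyltransferase Setdb1 and HP1 proteins, and which silences retroelements and imprinted genes. KRAB genes lie in clusters of tandem copies and differ strongly between mammals. Other Zfp proteins are regulators of chromatin, splicing, the ribosome or the spindle.

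In the protein predicted from the GENCODE transcripts, 96 of the 205 genes had both C2H2 fingers and a KRAB signature, 104 had C2H2 fingers with no KRAB signature found, and 5 had no match to either. The signature is strict and misses some KRAB genes. Chromosomes 7, 17 and 13 held 38, 30 and 26 of the genes. Gene spans ran from 3.3 to 381.8 kb with a median of 19.4 kb. The mean level ran from 20.1 to 2238 normalised read counts with a median of 59.3. Per kb of gene span, Zfp207, which encodes the spindle protein BuGZ, was highest in untreated cells at 49.1 normalised read counts, followed by Zfp263 at 38.4, Zfp949 at 27.02, Zfp871 at 21.4 and Zfp710 at 20.5. The median over the 205 genes was 3.68.

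Promoters of 5 genes on which the results below turn are printed, 250 bases before to 50 bases after the RefSeq start (GRCm38.p6, the build of the deposited gene positions), because these members moved together or apart. Zfp131 and Zfp263 were 2 of the largest early rises after LPS, Zfp652 and Zfp472 2 of the largest falls, and Zfp398 rose after IL-4 and fell after LPS. They lie at chr13:119790683-119790982 on the minus strand, and at chr16:3743849-3744148, chr11:95748817-95749116, chr17:32965581-32965880 and chr6:47835411-47835710 on the plus strand. The RefSeq start of Zfp131 is 390 bases inside the deposited gene. Capitals mark matches on either strand to the motif letters given after the sequences.
Zfp131: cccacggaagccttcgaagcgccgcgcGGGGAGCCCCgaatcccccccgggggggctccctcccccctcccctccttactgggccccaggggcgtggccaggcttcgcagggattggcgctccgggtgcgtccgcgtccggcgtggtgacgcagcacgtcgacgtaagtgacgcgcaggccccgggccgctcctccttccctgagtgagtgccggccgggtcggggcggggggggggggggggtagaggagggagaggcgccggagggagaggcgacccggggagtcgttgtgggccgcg
Zfp263: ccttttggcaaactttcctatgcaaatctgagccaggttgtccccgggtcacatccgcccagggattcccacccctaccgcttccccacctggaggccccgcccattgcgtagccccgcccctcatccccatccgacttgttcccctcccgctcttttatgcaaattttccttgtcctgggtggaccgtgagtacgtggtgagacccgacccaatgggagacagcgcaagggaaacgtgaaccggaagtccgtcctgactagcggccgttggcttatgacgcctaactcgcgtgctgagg
Zfp652: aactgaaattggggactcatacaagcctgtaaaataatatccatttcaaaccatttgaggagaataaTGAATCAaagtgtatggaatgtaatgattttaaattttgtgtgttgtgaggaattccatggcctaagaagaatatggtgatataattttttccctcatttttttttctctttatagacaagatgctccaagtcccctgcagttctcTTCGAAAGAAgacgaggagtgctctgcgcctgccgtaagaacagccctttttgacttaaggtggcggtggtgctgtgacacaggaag
Zfp472: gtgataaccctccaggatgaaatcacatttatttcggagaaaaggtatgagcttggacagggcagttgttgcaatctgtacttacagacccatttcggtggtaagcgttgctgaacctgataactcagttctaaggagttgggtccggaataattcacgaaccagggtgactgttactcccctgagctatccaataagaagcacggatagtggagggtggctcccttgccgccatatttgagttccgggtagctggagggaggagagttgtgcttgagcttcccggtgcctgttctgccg
Zfp398: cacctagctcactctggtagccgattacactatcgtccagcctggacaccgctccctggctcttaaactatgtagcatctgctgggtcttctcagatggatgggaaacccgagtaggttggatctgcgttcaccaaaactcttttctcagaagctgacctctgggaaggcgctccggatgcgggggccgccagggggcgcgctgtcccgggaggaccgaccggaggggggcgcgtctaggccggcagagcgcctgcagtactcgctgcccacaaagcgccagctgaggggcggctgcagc

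The motifs searched, on both strands, were the cAMP response element (TGACGTCA), AP-1 (TGANTCA), kappaB (by its usual consensus), the interferon-stimulated response element (GAAA, any 2 bases, GAAA), STAT6 (TTC, any 4 bases, GAA) and the E-box (CACGTG). Zfp131 held a kappaB match 223 bases before the start, and Zfp652 an AP-1 match 183 bases and a STAT6 match 37 bases before it. The other 3 windows held none of these letters. Of the 205 genes, 175 had a promoter in the table. Among these, 8 (4.57%) held the cAMP response element, against 1.85% of all 27025 promoters and 2.32% of 17490 protein-coding ones. Of these 8 genes, Zfp595, Zfp953, Zfp874a and Zfp874b lie in the same cluster on chromosome 13, and Zfp266 and Zfp426 in the same cluster on chromosome 9. Genes of a cluster share sequence, so the share rests in part on related loci. AP-1 letters stood in 4.00% of the Zfp promoters and 7.03% of protein-coding ones, kappaB in 4.00% and 4.57%, STAT6 in 7.43% and 6.38%, and the E-box in 8% and 7.91%. The interferon element stood in 4 Zfp promoters and in 3.40% of protein-coding ones. Of the 27 promoters of genes that rose over the LPS course, 2 held a kappaB match, and of the 138 that fell, 3 did. The median number of CpG pairs per window was 15 for the Zfp genes and 13 for protein-coding genes.

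The cells carried macrophage markers. Each of 10 markers, such as Csf1r, Adgre1 and Mertk, was detected, with summed levels of 11590 to 13549 normalised read counts in untreated, 11726 to 19964 in LPS and 18718 to 29611 in IL-4 samples. By their largest change over the LPS course, 5 of the 10 rose and 5 fell, Csf1r and Mertk among the falls. Mrc1 weighs on the IL-4 sums, with a mean of 1878 in untreated cells and 15650 at IL-4 1 h. The 20 markers of other cell types summed to 42 to 314, only 4 of them passed the filter on low values, and 4 were at 0 in every sample. Those that passed were Flt3 (0 to 17 over all samples), Col1a1 (8 to 95), Col1a2 (16 to 128) and Pecam1 (2 to 149). Library totals were 2469768 to 2790981 normalised read counts in untreated and IL-4 samples and 3571492 to 4058199 after LPS, as the authors scaled the libraries on invariant genes and not to equal totals. Replicate 1 stood apart from the others. For the 620 genes of mean 1000 or more, the SD of the log2 ratio was 0.138 to 0.287 between replicates 2 and 3 and 0.37 to 0.496 for pairs with replicate 1. Fewer cells expressing a gene and less RNA per cell cannot be told apart in such bulk samples.

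LPS lowered most Zfp genes, and early. At 0.5 h, 130 of the 205 genes (63.4%) were lower than in untreated cells and 21 (10.2%) higher, against 34.4% lower and 19.6% higher among all 13901 genes tested, and 40.0% and 21.0% among the 8437 tested protein-coding genes with the same minimum mean. At 1 h, 121 were lower and 23 higher (all genes 39.0% and 24.8%), at 2 h 108 and 24 (39.0% and 26.9%), and at 4 h 109 and 22 (37.6% and 25.9%). The share lower thus went from 63.4% to 59.0%, 52.7% and 53.2% over the 4 times, while that of all genes lay between 34.4% and 39.0%. Counting both directions, 151, 144, 132 and 131 genes were called at the 4 times in order, against 53.9%, 63.8%, 65.9% and 63.5% of all genes. In the same order the median log2 fold changes of the Zfp genes were -0.98, -0.99, -0.69 and -0.64, where the medians of all tested genes were -0.25, -0.30, -0.29 and -0.26. These shares are descriptions, and no test was made of the list.

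Over the whole LPS course, an F test called 192 of the 205 genes (93.7%), against a background of 87.6% of all tested genes, so that being called was in itself no mark of the family. By the sign of the largest change, 161 of the 192 fell and 31 rose. Falls reached at least 1 log2 unit in 140 genes, 2 units in 67 and 3 units in 22, and rises reached 1 unit in 19. These splits by sign and size are given without a share of all tested genes, whose medians after LPS were also negative. They are therefore descriptions and not marks of the family. The 13 genes that were not called included Zfp687, which with Zfp592 belongs to a complex of zinc finger proteins and Zmynd8, and Zfp335, Zfp276 and Zfp330. Without replicate 1, 2 or 3 the course calls numbered 194, 160 and 164.

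The scale of the libraries matters to these counts. With the libraries brought to equal totals, the median of all genes moved by -0.49 at 0.5 h and -0.58 at 4 h, and the median of the Zfp genes went to -1.48 and -1.22. With median-of-ratios scaling the Zfp medians were -0.74 and -0.41. The Zfp median relative to that of all genes was -0.74 at 0.5 h on the deposited scale, -0.75 at equal totals and -0.73 with median-of-ratios scaling, and at 4 h it was -0.38, -0.39 and -0.38. Among the called genes at 2 h, 18.2% were higher on the deposited scale and 4.49% at equal totals. At 4 h the share was 16.8%, against 6.47% at equal totals and 28.2% with median-of-ratios scaling.

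**Figure D1:**
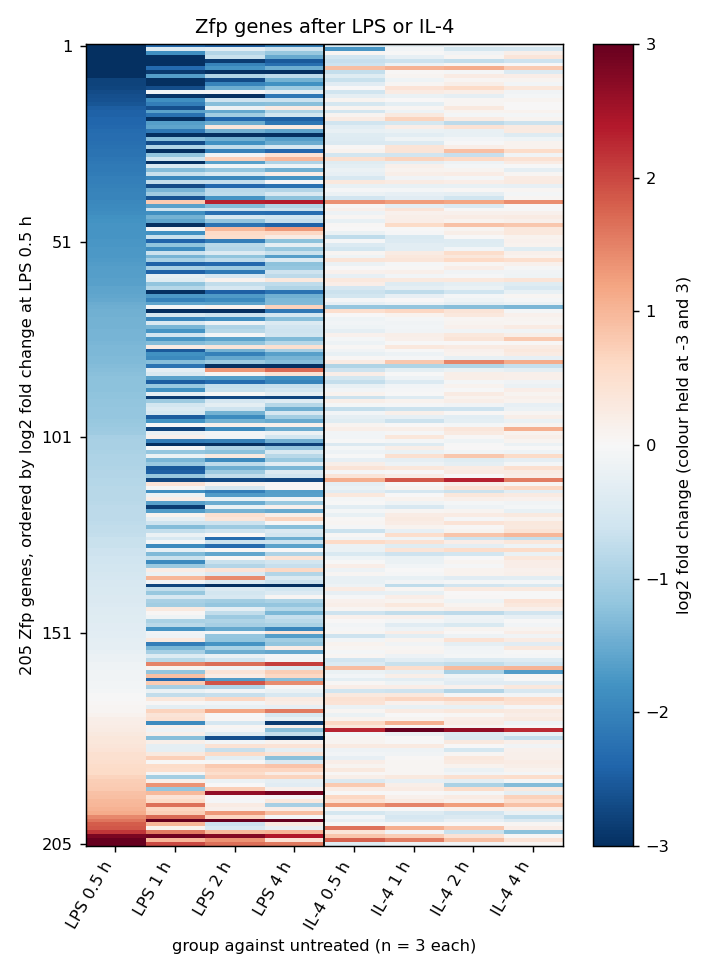
Log2 fold changes against untreated (colour, held at -3 and 3) of the 205 Zfp genes (rows, ordered by their value at LPS 0.5 h) at the 4 LPS and 4 IL-4 times (columns, n = 3 per group). Most rows are blue in the LPS columns, where 161 genes fell over the course, and pale in the IL-4 columns.

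**Figure D2:**
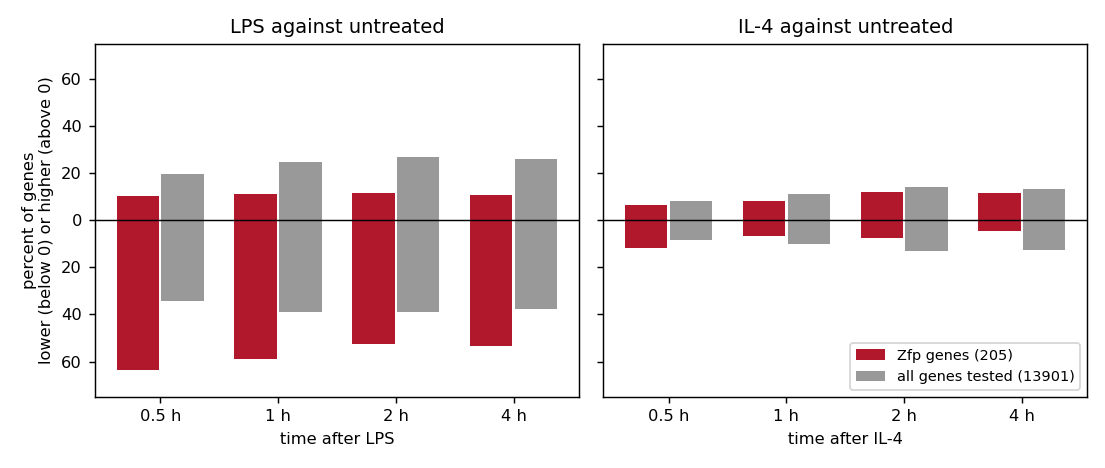
Percent of genes called higher (bars above 0) or lower (bars below 0) than untreated at each time, for the 205 Zfp genes (red) and all 13901 tested genes (grey). The red bars reach 63.4% lower at LPS 0.5 h where the grey bar reaches 34.4%, and at the IL-4 times both are under 15%.

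Summed over the 205 genes, the level was 27128 to 28634 normalised read counts in untreated samples, 24319 to 26109 at LPS 0.5 h and 23829 to 25188 at 1 h. By 2 h it had come to 25851 to 27082, and the 4 h samples held 26464 to 27319. The untreated samples did not overlap with those at 0.5, 1 or 2 h. As a share of each library, the sum was 1.09% to 1.11% in untreated cells and 0.622% to 0.731% over the LPS samples. In the IL-4 samples the sum was 28955 to 31565, above every untreated sample, and its share 1.05% to 1.24%. After LPS the sum, which rests on the highest genes, moved less than the typical gene did. At IL-4 0.5 h and 1 h it was above untreated while the median log2 fold changes of the genes were -0.06 and -0.002. The steep IL-4 rise of Zfp609, described below, is part of that sum.

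The largest rises after LPS were few and steep. Zfp811 (Entrez 240063, chr17:32795676-32809931, minus strand), a KRAB gene, was nearly silent in untreated cells at 4, 1 and 1 normalised read counts in replicates 1 to 3. It stood at 8, 6 and 8 at 0.5 h, at 50, 29 and 25 at 1 h, at 87, 87 and 93 at 2 h, and at 229, 212 and 192 at 4 h. No LPS sample overlapped with the untreated ones, and the log2 fold change at 4 h was 6.28 (SE 0.33, adjusted p = 2.01e-10). Since the untreated values are so low, its size depends on the pseudocount and was 4.46 with 8 and 6.61 with 0.5. The IL-4 samples stayed between 0 and 5. Its neighbour Zfp799, whose end lies 5.52 kb upstream on the same strand, fell by 1.75 at 0.5 h from a mean of 67.3 to 19.3. Zfp871, which starts 7.39 kb past the end of Zfp811, went from 431, 545 and 485 to 881, 937 and 889 at 1 h (0.89, SE 0.12, adjusted p = 1.06e-05).

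Zfp131 (Entrez 72465, chr13:119765186-119791122, minus strand), a BTB-domain zinc finger gene, went from 90, 96 and 89 in untreated cells to 1230, 1056 and 910 at 0.5 h. It was back to 350, 370 and 378 at 1 h and 253, 278 and 281 at 4 h, still above untreated in each replicate. The log2 fold change was 3.51 (SE 0.13, adjusted p = 8.08e-12) at 0.5 h and 1.55 at 4 h, a difference of -1.96 (adjusted p = 3.14e-09). The non-coding gene Gm41077, which overlaps it on the other strand, rose with it by 3.13, and since no source used here says that reads were counted by strand, the reads of the pair cannot be told apart.

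Zfp263 (Entrez 74120, chr16:3744099-3750788, plus strand), a SCAN-domain zinc finger gene, combined a high level with a plateau. Its values were 252, 245 and 273 in untreated cells and 1803, 1915 and 1767 at 0.5 h. The 1 h samples held 1972, 1900 and 2003, those of 2 h 1554, 1883 and 1825, and those of 4 h 1458, 1312 and 1297. The rise was 2.93 at 1 h (SE 0.10, adjusted p = 2.13e-12). It also rose after IL-4, to 486, 420 and 468 at 0.5 h (0.83, SE 0.07, adjusted p = 2.94e-06), and was at 257, 269 and 268 by 4 h, overlapping with untreated.

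Other rises differed in their timing. Zfp280b went from 19, 17 and 16 to 142, 158 and 146 at 0.5 h (3.03, SE 0.19, adjusted p = 4.27e-09) and was at 26, 26 and 19 at 4 h (0.42, adjusted p = 0.0675). Zfp800 climbed late, from 167, 190 and 177 to 327, 376 and 292 at 0.5 h and to 1285, 1251 and 1419 at 4 h (2.88, SE 0.11, adjusted p = 5.9e-12). Zfp281, a repressor that keeps the pluripotency gene Nanog in check in embryonic stem cells, was at 19, 21 and 19 at 0.5 h against 19, 20 and 27 untreated, and then rose to 65, 54 and 72 at 1 h and 89, 93 and 104 at 4 h (2.08, SE 0.19, adjusted p = 1.5e-07). Zfp719, a KRAB gene, went from 30, 36 and 44 to 150, 169 and 170 at 0.5 h (2.14, SE 0.18, adjusted p = 9.59e-08). Zfp658, the next gene 4.12 kb upstream of it on chromosome 7, had its highest values at 1 h with 151, 145 and 134 against 54, 52 and 61 (1.35, SE 0.18, adjusted p = 1.22e-05).

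Zfp949 met the rule for the largest rises but not in a way that can be relied on. It stood at 65, 914 and 891 in untreated replicates 1 to 3, at 19, 31 and 1479 at 0.5 h and at 1558, 120 and 1490 at 1 h, so that 1 library in the untreated and LPS 1 h groups and 2 at LPS 0.5 h were far below the rest of their group, with ratios of highest to lowest of 13.9, 12.9 and 74.0 on the value + 1 scale. At 2 and 4 h and in the IL-4 groups the replicates lay together, at 1554 to 2253 after LPS and 691 to 1166 after IL-4. The F test gave an adjusted p of 0.04, no single LPS time passed (2.34 at 4 h, SE 1.36, adjusted p = 0.147), and without replicate 1 the value at 4 h was 0.97. It was the only one of the 205 genes with a replicate at or above 50 and a ratio of 5 or more to another of its group, and it did this in 3 groups.

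The deepest falls after LPS reached their lowest values at different times. Zfp395 (Entrez 380912, chr14:65358676-65398930, plus strand) fell step by step, from 245, 230 and 251 to 110, 89 and 93 at 0.5 h and 54, 52 and 47 at 1 h. By 2 h it was at 8, 9 and 9, and the 4 h samples held 1, 2 and 3. With every 4 h sample at or under 3 normalised read counts, the level was at least 80.7-fold lower there, computed against 3 in each library (adjusted p = 2.76e-12). After IL-4 it also fell, to 129, 134 and 126 at 0.5 h (-0.89, SE 0.10, adjusted p = 2.51e-05), and stayed there.

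Zfp704 (Entrez 170753, chr3:9427010-9610085, minus strand), known as a glucocorticoid-induced gene, was at 1008, 696 and 702 in untreated cells and at 1380, 844 and 841 at 0.5 h, not a called change. It then dropped to 416, 314 and 269 at 1 h. The 2 h samples held 129, 100 and 158, and those of 4 h 31, 22 and 20. The change at 4 h was -4.99 (SE 0.24, adjusted p = 7.4e-11), and it differed by -5.32 from that at 0.5 h (adjusted p = 4.67e-11). The non-coding gene C030034L19Rik on its other strand fell by 5.56 at 4 h, from a mean of 148 to 2.33. As for Zfp131, the reads of this pair cannot be told apart.

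Zfp652, whose protein works with the corepressor Cbfa2t3, went from 130, 95 and 100 to 58, 51 and 53 at 0.5 h and to 6, 7 and 7 at 1 h (-3.82, SE 0.23, adjusted p = 1.51e-09), and was at 11, 17 and 16 at 4 h. Of its transcript sequence, 11.9% of 50-base words also occur at another locus. The KRAB gene Zfp563 reached its floor at 1 h, with 1, 2 and 3 against 40, 30 and 52 untreated, and was at least 13.6-fold lower (adjusted p = 1.64e-06). Zfp141, likewise a KRAB gene, went from 58, 67 and 68 to 3, 3 and 6 at 1 h (-3.76, SE 0.34, adjusted p = 1.43e-07).

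Some of the deep falls were lowest at 0.5 h and higher again at 4 h. Zfp189 went from 26, 37 and 30 to 1, 1 and 3 at 0.5 h, at least 10.3-fold lower (adjusted p = 3.54e-07), and was at 22, 16 and 34 at 1 h (-0.41, adjusted p = 0.307). Zfp472 went from 59, 81 and 75 to 5, 4 and 5 at 0.5 h (-3.67, SE 0.34, adjusted p = 3.33e-07) and was at 15, 13 and 23 at 4 h, still called lower than untreated. Zfp386, a KRAB gene, went from 71, 73 and 88 to 4, 4 and 9 (-3.63, SE 0.33, adjusted p = 3.27e-07) and was at 31, 34 and 38 at 4 h, still below every untreated sample.

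**Figure D3:**
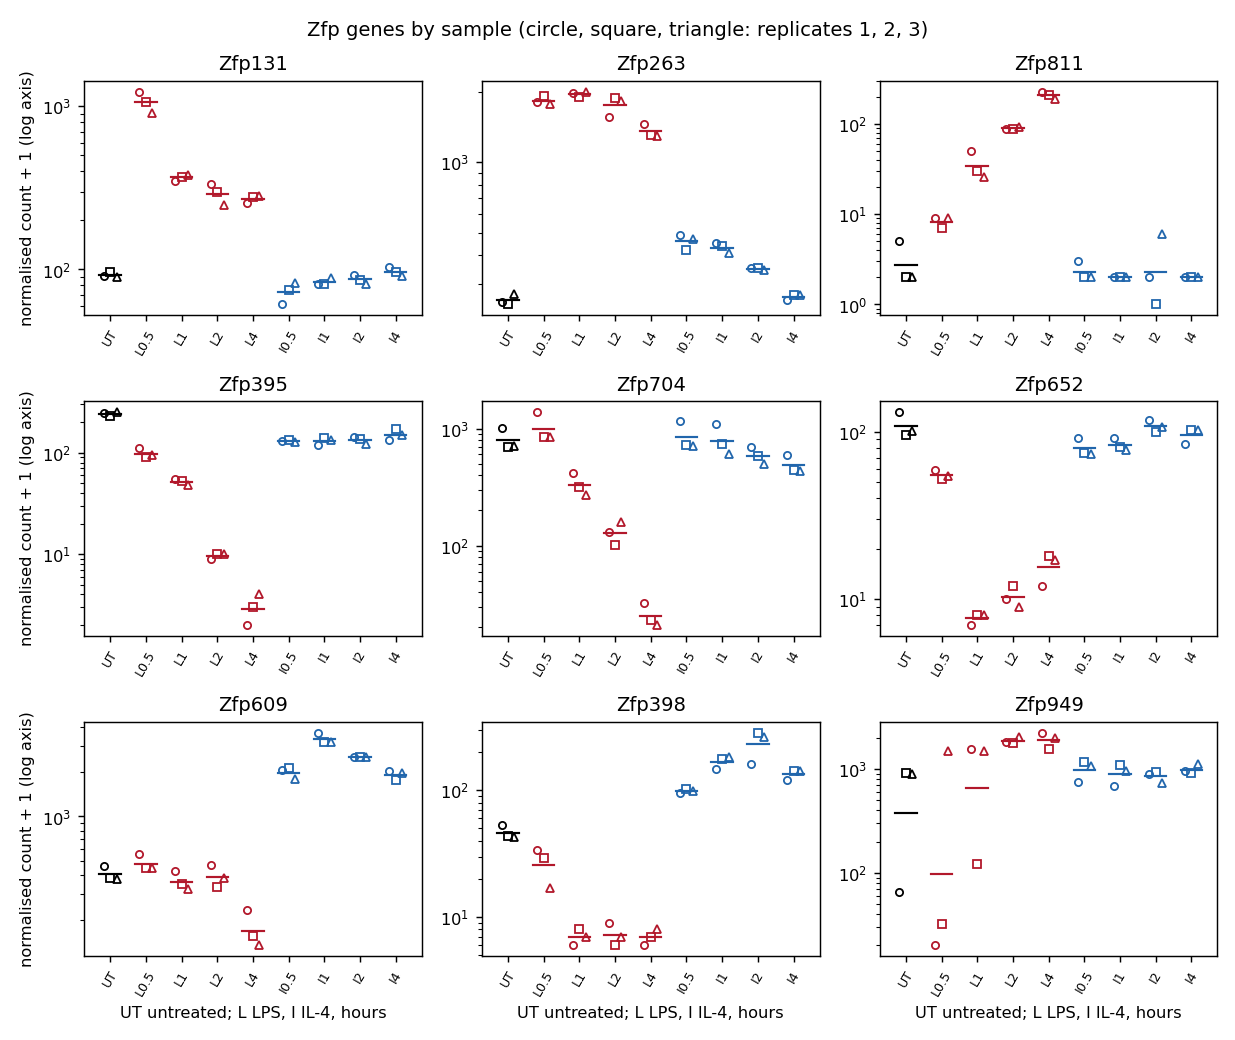
Normalised read counts + 1 (log axis) of 9 Zfp genes in each sample of the untreated, LPS and IL-4 groups, with circles, squares and triangles for replicates 1, 2 and 3 and a line at the mean of the logs. Zfp811 and Zfp395 cross the whole range over the LPS course, Zfp609 rises after IL-4, and Zfp949 shows 1 library far below the others in the untreated and LPS 1 h groups and 2 at LPS 0.5 h.

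Many of the early falls were followed by higher values. Of the 130 genes lower at LPS 0.5 h, 68 were higher at 4 h than at 0.5 h by a test of the 2 times against each other, 11 were lower still, and the others were not called different. Of the 68, 45 were no longer called lower than untreated at 4 h, and 23 were. Among all 13901 tested genes, 4775 were lower at 0.5 h. Of these 4775, 2474 had the first pattern (17.8% of all tested) and 2069 the second (14.9% of all tested). The return was thus no mark of the Zfp genes. At equal totals these 68 and 45 became 63 and 22, and without replicate 2 or 3 they were 46 and 38 or 43 and 39. Over all 205 genes, 79 (38.5%) were higher at 4 h than at 0.5 h and 44 (21.5%) lower, against 32.3% and 30.8% of all tested genes (63.0% in either direction). In all, 67 genes were lower at every LPS time, where 13.7% of all tested genes were. The count was 129 at equal totals, 49 with median-of-ratios scaling, and 41 or 40 without replicate 2 or 3. By the time of the largest change, 69 of the 161 falls were deepest at 0.5 h, and 56, 19 and 17 at the next 3 times. This split by time is given without a share of all tested genes and is no mark of the family.

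A few genes crossed the untreated level. Zfp207 went from 1104, 1148 and 1078 to 738, 820 and 728 at 0.5 h (-0.54, SE 0.10, adjusted p = 0.000315), and reached 1520, 1732 and 1866 at 4 h (0.61, adjusted p = 6.59e-05, but 0.01 and not called at equal totals). Zfp821 went from 37, 44 and 35 to 12, 13 and 15 and then to 73, 58 and 58 at 4 h (0.69, adjusted p = 0.00473, not called without replicate 3, and 0.09 and not called at equal totals). Zfp160, Zfp212, Zfp319, Zfp777 and Zfp975 were likewise lower at 0.5 h and higher at 4 h, 7 genes in all, of which 3 held without replicate 3, and at equal totals such genes were Zfp160, Zfp281 and Zfp319. Among all tested genes 4.65% crossed in this way and 3.29% in the reverse way. The reverse was called for 1 of the 205 genes, Zfp703, a corepressor linked to luminal breast cancer, and at equal totals for Zfp384, Zfp516 and Zfp622 instead. Its values were 40, 37 and 47 untreated, 107, 79 and 69 at 0.5 h (1.00, adjusted p = 0.0023, but 0.50 and not called at equal totals), 169, 107 and 126 at 1 h and 21, 19 and 20 at 4 h (-1.01, adjusted p = 0.00175).

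**Figure D4:**
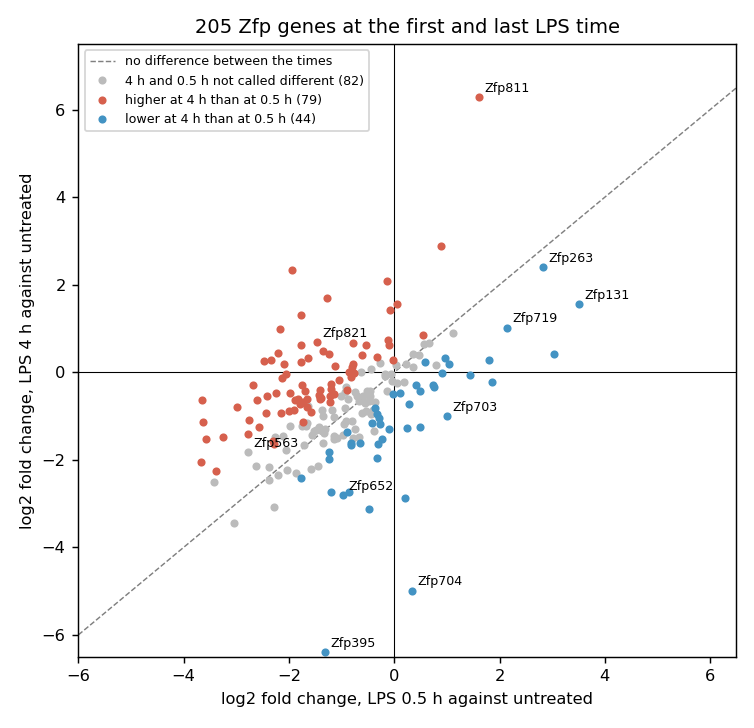
Log2 fold change against untreated at LPS 0.5 h (horizontal) and LPS 4 h (vertical) of the 205 Zfp genes, with the dashed line for equal change. The 79 genes higher at 4 h than at 0.5 h (red) lie above the line, most of them left of 0, and the 44 lower at 4 h (blue) below it, with Zfp395 and Zfp704 at the bottom.

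Genes higher at all 4 LPS times numbered 7, namely Zfp131, Zfp263, Zfp407, Zfp488, Zfp719, Zfp800 and Zfp811, and 4 of them (Zfp131, Zfp263, Zfp800 and Zfp811) also at equal totals. Among all tested genes 9.7% were higher at all 4 times. Zfp407, the longest of the genes and the one of highest mean, went from 1681, 1711 and 1752 to 3401, 2912 and 2979 at 4 h (0.85, SE 0.09, adjusted p = 7.68e-07), while at equal totals it was not called at 0.5, 1 or 2 h and its sign turned at 1 h, from 0.56 to -0.03. Zfp710 fell sharply and returned, from 1508, 1318 and 1346 to 249, 171 and 163 at 1 h (-2.86, SE 0.21, adjusted p = 1.73e-08) and to 2138, 1305 and 1245 at 4 h. The non-coding genes Gm51449 and Gm21057 on its other strand had their lowest values at the same time, with log2 fold changes of -2.46 and -3.23. Their reads cannot be told apart from those of Zfp710 either, since strand use in counting is not known.

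Genes with a KRAB signature were 65 of the 130 genes lower at LPS 0.5 h and 96 of all 205, a like share. At LPS 0.5 h, 65 of the 96 genes with a KRAB signature (67.7%) were lower, with a median log2 fold change of -1.34, and 64 of the 104 C2H2 genes without one (61.5%), with a median of -0.81. At 1 h the medians were -1.38 and -0.42. Of the 205 genes, 74 lay in 9 clusters, defined as at least 4 of the genes with gaps of at most 500 kb. At 0.5 h 56 of the 74 (75.7%) were lower with a median of -1.41, against 74 of the 131 outside clusters (56.5%) with a median of -0.82. At 4 h the shares were 54.1% and 52.7%. The rises lay mostly outside clusters, 25 of 31 over the LPS course. The groupings by KRAB signature and by cluster overlap and are not separate patterns. A KRAB signature was found in 54 of the 74 clustered genes and in 42 of the 131 others. No test was made of these differences between groups of genes, and genes of a cluster share sequence.

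The largest clusters behaved as follows. On chr17:21008941-23193252, 15 of 17 genes were lower at 0.5 h and 13 at 4 h, with medians of -1.66 and -1.34, and Zfp760 there went from 64, 100 and 103 to 7, 6 and 9 (-3.42, SE 0.39, adjusted p = 3.63e-06). On chr13:67038594-67729173, 10 of 16 were lower at 0.5 h and 15 at 1 h, and Zfp874b went from 58, 54 and 66 to 4, 2 and 7 at 2 h (-3.61, SE 0.35, adjusted p = 2.53e-07), with 13.5% of its words shared with other loci. On chr17:32765496-33394637, which holds Zfp811, Zfp472 and Zfp563, 5 of 8 were lower at 0.5 h and Zfp811 alone was higher. On chr7:29768552-30169741, 7 of 8 were lower at 0.5 h with a median of -1.93, and 3 at 4 h with a median of -0.34, among them Zfp790 at 32, 32 and 43 untreated and 5, 3 and 3 at 0.5 h (-2.99, SE 0.40, adjusted p = 1.42e-05). On chr7:27731409-27979157, Zfp60 went from 54, 60 and 61 to 5, 5 and 4 at 0.5 h (-3.39, SE 0.36, adjusted p = 1.42e-06). In the smaller clusters the largest changes were those of Zfp398 on chromosome 6, described with the IL-4 response, Zfp771 on chromosome 7 (-1.73 at 0.5 h, adjusted p = 0.00242), Zfp930 on chromosome 8 (-2.76 at 0.5 h, adjusted p = 0.000122) and Zfp266 on chromosome 9 (-2.02 at 2 h, adjusted p = 8.42e-07).

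Near-identical copies can share or lose reads. In 27 genes at least 10% of the 50-base words of the transcript also occur at another locus, and 14 of these 27 were lower at LPS 0.5 h, against 116 of the other 178. Among the 152 genes that overlap no other annotated gene, 103 were lower and 14 higher at 0.5 h with a median of -1.17.

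**Figure D5:**
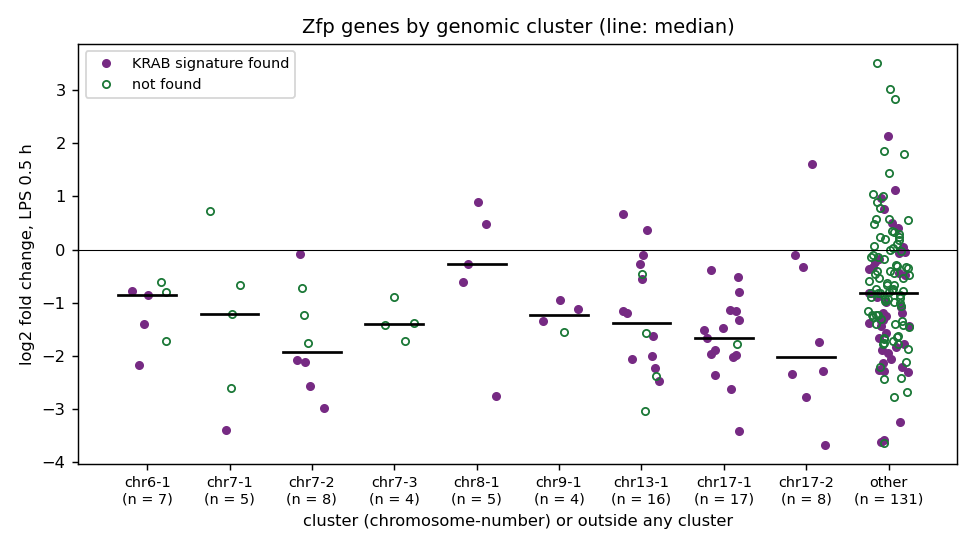
Log2 fold change at LPS 0.5 h of each Zfp gene (points, filled where a KRAB signature was found) by genomic cluster and outside clusters, with a line at the median. In 8 of the 9 clusters the median lies below that of the 131 genes outside, and the cluster on chromosome 8 is the exception at -0.26.

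Falls came from genes of every span and level. At LPS 0.5 h, 58.0% of the 69 shortest genes, 68.7% of the 67 of middle span and 63.8% of the 69 longest were lower, where 38.6%, 52.9% and 37.0% of tested protein-coding genes of the same minimum mean and the same span limits (15.5 and 24.5 kb) were. At 4 h the shares of the Zfp genes were 36.2%, 56.7% and 66.7%, and those of the protein-coding genes 26.0%, 37.0% and 46.4%, rising with span in the same way. Of the 105 genes at or above the median untreated level, 67 were lower at 0.5 h, and of the 100 below it, 63.

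A short list held KRAB genes whose products silence known targets. Of 9 such genes listed, 6 had a mean of at least 20, and 5 of these were lower at LPS 0.5 h, where 63.4% of all 205 Zfp genes and 34.4% of all tested genes were. Zfp57, the best known of them, was not among the 6. Zfp568, which silences a placental transcript of Igf2, went from 76, 76 and 84 to 13, 17 and 25 at 0.5 h (-2.09, SE 0.21, adjusted p = 7.52e-07) and was at 88, 93 and 89 at 4 h, above every untreated sample but not called (0.19, adjusted p = 0.435). Zfp809, which silences murine leukaemia virus DNA in stem cells, went from 73, 86 and 74 to 19, 24 and 24 at 1 h (-1.76, SE 0.32, adjusted p = 0.00021) and was at 135, 133 and 134 at IL-4 4 h (0.78, SE 0.11, adjusted p = 9.65e-05). Zfp932, a repressor of endogenous retroviruses with 37.0% of its words shared with other loci, went from 18, 33 and 26 to 13, 9 and 7 at LPS 0.5 h (-1.32, SE 0.34, adjusted p = 0.00428, not called without replicate 2 or 3) and to 52, 80 and 85 at IL-4 2 h (1.47, SE 0.30, adjusted p = 0.00232, not called without replicate 3). Zfp445, a regulator of imprinting, stood at 173, 152 and 168 untreated and at 186, 237 and 211 at LPS 4 h (0.36, adjusted p = 0.0314, not called without replicate 2 or 3, and -0.25 at equal totals).

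The partners through which KRAB proteins silence held both falls and rises. Of 28 partner genes tested, 25 were called over the LPS course, 19 with a fall and 6 with a rise, and 10 over the IL-4 course, 7 and 3. The background was 87.6% and 40.3%, and without replicate 1, 2 or 3 the IL-4 count was 14, 4 and 6. Trim28 itself fell from a mean of 51.3 to 20.3 at 1 h (-1.30, SE 0.22, adjusted p = 0.00011) and Setdb1 from 302.7 to 93.7 (-1.69, SE 0.21, adjusted p = 4.39e-06). Atf7ip, which stabilises Setdb1, fell by 1.90 at 4 h. The rises were led by Daxx, the chaperone of histone H3.3, from a mean of 23.7 to 932.3 at 4 h (5.27, SE 0.23, adjusted p = 2.49e-11). Hdac1 rose from 69.3 to 274.0 at 2 h. Atrx, the remodeller that works with Daxx, fell to a mean of 302 at LPS 1 h from 854.7 and rose to 1728 after IL-4.

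Among Zfp genes for chromatin and transcription regulators, 18 of 22 listed had a mean of at least 20. At LPS 0.5 h 8 of them (44.4%) were lower and 4 higher. Of all tested genes 34.4% were lower and 19.6% higher, and of the 205 Zfp genes 63.4% and 10.2%. The median of the 18 was 0.03 and lay above that of all 205. Most of the genes described here fell, so they do not stand for the list. Zfp64, which controls the KMT2A promoter in human leukaemia cells, went from 66, 66 and 71 to 23, 16 and 24 (-1.66, SE 0.21, adjusted p = 9.59e-06) and was at 26 to 41 in the later LPS samples. Zfp143, an activator of promoters of RNA polymerases II and III, went from 66, 53 and 58 to 27, 18 and 23 at 0.5 h (-1.35, SE 0.21, adjusted p = 7.3e-05) and was at 53, 90 and 73 at 1 h. Zfp148, a GC-box binding protein, was lowest at 1 h with 474, 462 and 417 against 1046, 979 and 957 (-1.14, SE 0.11, adjusted p = 3.94e-07). Zfp410, an activator of Chd4, was at 44, 46 and 51 at 0.5 h against 99, 87 and 111 (-1.05, SE 0.18, adjusted p = 0.00017). Zfp217, an oncogene product in a corepressor complex, dipped at 0.5 h and 4 h (-0.93 and -0.83), and rose after IL-4, from 319, 369 and 393 to 595, 653 and 654 at 2 h (0.82, SE 0.09, adjusted p = 9.73e-06). Zfp592 was at 107, 109 and 98 at 0.5 h against 202, 189 and 178 (-0.85, SE 0.14, adjusted p = 0.000122), whereas its partner Zfp687 was at 87, 64 and 74 against 61, 55 and 76 (0.23, adjusted p = 0.359, and -0.28 at equal totals). Zfp91, a ubiquitin ligase of the non-canonical NF-kappaB pathway, was at 157, 243 and 267 at 0.5 h against 335, 382 and 316 (-0.66, adjusted p = 0.00412, not called without replicate 2) and rose to 457, 571 and 551 at IL-4 0.5 h (0.61, SE 0.10, adjusted p = 0.001, not called without replicate 3). The non-coding gene Gm44505 overlaps Zfp91 on the same strand and had like changes of -0.68 and 0.60.

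Of the 9 Zfp genes of sufficient level listed for RNA, ribosome and spindle proteins, 5 (55.6%) were lower and 1 higher at LPS 0.5 h. Of all tested genes 34.4% were lower and 19.6% higher, and of the 205 Zfp genes 63.4% and 10.2%. Zfp326, part of the DBIRD complex of splicing and elongation, went from 246, 255 and 235 to 102, 144 and 134 at 0.5 h, was at 229, 233 and 264 at 1 h, and fell again to 104, 106 and 111 at 4 h (-1.19, SE 0.13, adjusted p = 1.3e-06). Zfp638, which represses unintegrated retroviral DNA, was at 321, 382 and 429 at 0.5 h against 627, 676 and 687 (-0.82, SE 0.14, adjusted p = 0.000167). Zfp598, the ubiquitin ligase of collided ribosomes, fell at 4 h to 32, 20 and 11 from 47, 57 and 39 (-1.25, SE 0.30, adjusted p = 0.00195, but 0.0507 without replicate 2). Before that fall it had been called higher than untreated, first at 1 h or 2 h.

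IL-4 moved fewer Zfp genes. Over its course 64 of the 205 (31.2%) were called, against a background of 40.3%, and 32 had a rise and 32 a fall as their largest change. At 0.5 h, 13 genes were higher and 24 lower (all genes 8.15% and 8.14%). The next time had 17 higher and 14 lower (11.1% and 9.83%), IL-4 2 h had 25 and 15 (14.3% and 13.2%), and the last time 24 and 9 (13.4% and 12.5%). Counting both directions, these were 37, 31, 40 and 33 genes, where 16.3%, 21.0%, 27.6% and 25.9% of all genes were called. The medians were -0.06, 0.00, 0.03 and 0.08, and 15 genes changed by at least 1 log2 unit. The course count was 71, 19 and 23 without replicate 1, 2 and 3, so it rests on replicates 2 and 3, which were close to each other. Among the called genes, 35.1% were higher at 0.5 h and 54.8% at 1 h, but 21.8% and 33.3% at equal totals. The balance turned without replicate 2 or 3, where 9 were higher and 2 or 4 lower at 0.5 h (81.8% and 69.2% higher), and 10 or 11 higher and 1 or 2 lower at 1 h (90.9% and 84.6%). At 4 h the share higher was 72.7% on the deposited scale and 61.3% with median-of-ratios scaling.

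The steepest IL-4 response was that of Zfp609 (Entrez 214812, chr9:65691583-65827564, minus strand), whose protein binds the cohesin loader Nipbl and represses the Rag genes in thymocytes. It went from 459, 386 and 377 to 2056, 2112 and 1779 at 0.5 h and to 3687, 3184 and 3194 at 1 h. The 2 h samples held 2529, 2509 and 2530, and those of 4 h 2014, 1776 and 1955. No IL-4 sample overlapped with untreated, and the rise at 1 h was 3.04 (SE 0.09, adjusted p = 1.98e-10). After LPS it was at 232, 154 and 134 at 4 h (-1.26, SE 0.19, adjusted p = 3.13e-05), and LPS and IL-4 differed by -3.50 there (adjusted p = 2.17e-15).

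Zfp398, a KRAB gene whose human counterpart binds oestrogen receptor alpha, moved in opposite directions under LPS and IL-4. It rose from 52, 43 and 42 to 161, 284 and 264 at IL-4 2 h (2.31, SE 0.18, adjusted p = 4.37e-07), and fell to 8, 5 and 6 at LPS 2 h (-2.68, SE 0.30, adjusted p = 1.08e-06). The direct difference at 2 h was -4.99 (adjusted p = 5.09e-15). Zfp622, a maturation factor of the large ribosomal subunit, rose under both, from 51, 75 and 71 to 199, 218 and 193 at IL-4 0.5 h (1.63, SE 0.14, adjusted p = 1.9e-06) and to 214, 226 and 280 at LPS 0.5 h (1.86, SE 0.19, adjusted p = 9.07e-07), where the direct difference of 0.23 was not called (adjusted p = 0.222). Zfp280b and Zfp703 rose after IL-4 as well, to 62, 59 and 67 (1.80, SE 0.18) at 0.5 h and to 146, 104 and 105 (1.48, SE 0.18) at 1 h.

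The largest falls after IL-4 stayed under 2 log2 units. Zfp189 was at 8, 4 and 18 at 0.5 h (-1.74, SE 0.36, adjusted p = 0.00434, not called without replicate 2) and at 25, 38 and 25 at 1 h. Zfp618, whose protein binds the DNA hydroxymethylation reader Uhrf2, was at 23, 8 and 23 at 4 h against 49, 59 and 55 (-1.67, SE 0.45, adjusted p = 0.0147, not called without replicate 2 or 3). Zfp821 was low at every IL-4 time, with 10 to 21 in the 12 samples against 35 to 44 untreated (-1.37 at 4 h, SE 0.25, adjusted p = 0.00101, but 0.0535 without replicate 2). The neighbours Zfp658 and Zfp719 fell together at 4 h, to 20, 21 and 25 (-1.30, SE 0.19, adjusted p = 0.000164) and 13, 18 and 14 (-1.23, SE 0.24, adjusted p = 0.00172, not called without replicate 3).

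Compared directly at the same time, LPS and IL-4 differed in 153, 154, 155 and 150 of the 205 genes over the 4 times, against backgrounds of 53.8%, 64.5%, 68.6% and 68.0% of all genes. LPS was the lower in 135, 133, 129 and 128 of them, where 35.8%, 40.5%, 42.3% and 41.9% of all genes were lower. The share with LPS higher among the called at 4 h was 14.7%, and 26.5% with median-of-ratios scaling. Genes that rose after IL-4, fell after LPS and differed directly numbered 3, 8, 12 and 14 over the 4 times, with Zfp120 and Zfp398 among them at every time and Zfp91, Zfp141, Zfp292, Zfp362, Zfp809 and Zfp932 at more than 1. Of all tested genes, 1.7%, 2.9%, 4.19% and 4.09% had this pattern. Without replicate 2 the counts were 1, 3, 4 and 7, and without replicate 3 they were 1, 4, 4 and 7. Zfp398 was not among them at 0.5 h in either case, and Zfp120 was not among them at 4 h without replicate 3. At equal totals they were 4, 10, 16 and 22, and with median-of-ratios scaling 3, 6, 7 and 10. Zfp120, a KRAB gene, was at 127, 125 and 152 untreated, at 11, 21 and 10 at LPS 0.5 h (-3.24, SE 0.44, adjusted p = 1.96e-05) and at 250, 249 and 252 at IL-4 0.5 h (0.90, SE 0.11, adjusted p = 5.66e-05). The opposite pattern was called for Zfp516 at 1 and 2 h, Zfp281 at 2 h and Zfp618, Zfp719 and Zfp821 at 4 h, where 1.88%, 3.14% and 3.73% of all genes had it at these 3 times. Without replicate 2 only Zfp719 had it, without replicate 3 none did, and at equal totals Zfp516 at 2 h, Zfp618 and Zfp821 did not. Both comparisons share the untreated samples. Neither course called 10 of the 205 genes, a count given without a share of all tested genes and as a description only.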

How the data were processed

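Chromatin-associated RNA was sequenced (single-end, random-primed libraries) in 27 samples of 9 groups, and the table gives one value per gene and sample. The deposited values are scores, whole numbers that the authors obtained by normalising read counts on invariant genes and rounding. Reads were aligned to mm10 with TopHat2 2.1.1, multi-mapping and blacklisted reads were removed (bedtools 2.29.2), and reads were counted per RefSeq gene in R 3.6.2, as the study's methods and the submitters' processing notes state. Whether strand was used in counting is not given in the sources used here. Raw depth is unknown, so values carry no counting interval. Loss of multi-mapping reads lowers genes with near-identical copies.

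Here, log2(value + 1) was fitted with limma 3.58.1 (R 4.3.3, trended variance) for the 13901 genes with at least 10 in at least 3 samples. These genes hold 99.6% of the normalised read counts summed over all genes and samples. Each course was fitted with its 15 samples (untreated and 4 times), as an F test and as contrasts, and LPS was compared with IL-4 in a fit of all 27. Benjamini-Hochberg adjustment ran over all tested genes, with a threshold of 0.05. In simulated data with 200 changed genes among 13901, the fit was tested before use. A KRAB signature and C2H2 fingers were searched by pattern in the longest open reading frame of GENCODE transcripts, and shared sequence was the share of 50-base words of the transcript found at other loci. Promoters are from RefSeq (GRCm38.p6).

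Genes were named by rule: among genes called over a course whose peak and untreated replicates do not overlap and whose higher group has a mean of at least 20, the 8 largest rises and 8 largest falls after LPS and the 5 largest of each after IL-4. Added to these were 18 genes of known function, the 5 of highest mean and the 5 of highest level per kb, the neighbours of the level limit, and the gene of largest LPS change in each cluster. Other genes are named as members of a stated count or as neighbours, and were chosen after their values were seen. The genes, lists and rules were chosen with earlier results of these data known. Alternatives were other pseudocounts, filters and scalings, a replicate block, leaving out each replicate, and averaging replicates 2 and 3.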

Additional observations from a re-analysis of the deposited data

Results flagged for a closer look

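The effect of LPS differed between 0.5 h and 4 h in 36 of the genes chosen for the size of their change, known function, high level or place in a cluster. The limma test compared the 4 h samples with the 0.5 h samples at a Benjamini-Hochberg adjusted p under 0.05. Some other genes named above, such as Zfp120, were also called by it and are not listed. The same test called 63.0% of all 13901 tested genes and 123 of the 205 Zfp genes. Being called was thus in itself no mark of the genes listed here, and the list is a description. Each value is the log2 change at 4 h minus that at 0.5 h, with 3 samples per group.

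Genes that were higher at 4 h than at 0.5 h included Zfp811 (4.68) and Zfp949 (4.29), the latter with replicates far apart at 0.5 h and not called without replicate 1 or 2. Zfp189 (3.03), Zfp386 (2.48), Zfp568 (2.28), Zfp281 (2.22), Zfp790 (2.2), Zfp821 (2.16), Zfp800 (1.99), Zfp143 (1.84), Zfp930 (1.66) and Zfp472 (1.63) followed. The smaller differences of this sign were those of Zfp207 (1.16), Zfp60 (1.13), Zfp771 (1.05), Zfp710 (0.92), Zfp410 (0.88), Zfp592 (0.87), Zfp618 (0.85), Zfp871 (0.72), Zfp638 (0.7), Zfp445 (0.68) and Zfp407 (0.29). Zfp771 and Zfp407 were not called at equal totals. Without replicate 1 Zfp771 was not called, without replicate 2 Zfp60, Zfp407, Zfp618 and Zfp771 were not, and without replicate 3 Zfp60, Zfp407 and Zfp618 were not.

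Lower at 4 h than at 0.5 h were Zfp704 (-5.32), Zfp395 (-5.08), Zfp280b (-2.61), Zfp622 (-2.09), Zfp703 (-2.01), Zfp131 (-1.96), Zfp398 (-1.88), Zfp652 (-1.83), Zfp598 (-1.73), Zfp609 (-1.5), Zfp719 (-1.12), Zfp658 (-1.1) and Zfp263 (-0.43). The last was not called without replicate 2.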

How the results depend on the processing

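At equal totals the median log2 fold change of the Zfp genes after LPS was -1.481, -1.553, -1.326 and -1.22 over the 4 times, and after IL-4 -0.188 at 0.5 h and -0.106 at 1 h. With median-of-ratios scaling the LPS values were -0.74, -0.732, -0.455 and -0.411 in the same order, and that of IL-4 1 h was -0.024. A pseudocount of 8 gave -0.875 at LPS 0.5 h and -0.807 at 1 h, and a minimum mean of 50, which leaves 115 of the genes, -0.739 and -0.49. With that minimum the genes changed after LPS numbered 84, 76, 73 and 76 at the 4 times, 105 over the course and 70 between 4 h and 0.5 h, and LPS differed from IL-4 in 88, 85, 88 and 83, all lower because fewer genes were tested. Equal totals reversed Zfp445 at LPS 4 h (-0.25) and Zfp687 at LPS 0.5 h (-0.277), neither called there.

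The IL-4 counts rested on replicates 2 and 3. Leaving out 1 replicate gave 11 to 45 genes at 0.5 h and 11 to 37 at the next time, then 15 to 46 and 14 to 45, with 19 to 71 over the course, with 4 to 14 silencing partners, the highest count of each range being without replicate 1. The median at IL-4 1 h ranged from -0.034 to 0.004. With replicates 2 and 3 averaged into 1 sample, the counts were 12, 12, 18 and 15 at the times, 21 over the course and 6 partners.

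Same-numbered samples deviated alike in sign, but not every correlation was over 0.1, the minimum set for pairing (correlations of deviations from 0.351 to 0.713 for number 1, 0.0897 to 0.361 for number 2 and 0.202 to 0.454 for number 3, and 19 of 27 samples correlated best with their own number), so the numbers were not taken to pair the samples. With the replicate number as a block, 198 genes changed over the LPS course (192 without it), 90 over the IL-4 course (64) and 48 at IL-4 1 h (31).

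Of 76 values of named genes, 71 kept their sign and their side of the threshold at equal totals, 73 with median-of-ratios scaling, 75 without the filter, 76 with either pseudocount, and 75, 66 and 67 without replicate 1, 2 and 3. Depth is unknown, and for genes near 20 whole-number values limit the precision of fold changes.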

Other observations

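Of the protein-coding Zfp genes with a mean under 20, 84 had levels high enough for the test, and they are not described here. Of the 8 Zfp promoters with the cAMP response element letters, 7 belong to genes that fell over the LPS course and none to a gene that rose, and of all 175 Zfp genes with a promoter 138 fell and 27 rose. Several of these 8 lie in shared clusters, as given with the promoters.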
